A study of Solenopsis invicta with 3 samples.

Results

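The genes described here are those whose transcripts were less abundant in the antennae of monogyne workers of the fire ant Solenopsis invicta than in the antennae of polygyne workers of both genotypes. They number 100 of the 19703 genes in the count tables. The study compared 3 worker classes, and the libraries analysed here hold the pooled antennal RNA of each class in 1 library. No difference could therefore be set against the spread between replicates, and no test was run. The replicate libraries that the study describes were not analysed here. P_Bb came from polygyne workers of genotype SB/Sb, P_BB from polygyne workers of genotype SB/SB, and M_BB from monogyne workers of genotype SB/SB. All were foraging workers of medium size from colonies collected in Taiwan and kept in the laboratory, and each was genotyped singly at Gp-9 before antennae of a class were pooled. The labels name 4 colonies for each pool, while the series' design text says that 3 bioreplicates were mixed. P_Bb and P_BB name the same colonies and M_BB names others, so social form and colony of origin cannot be told apart. The design cannot tell fewer cells of a type from less RNA per cell either.

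Monogyne colonies of this ant are headed by a single queen, and polygyne colonies hold several. The supergene, a stretch of chromosome inherited as a block without recombination in heterozygotes, has the variants SB and Sb. Workers of SB/Sb genotype occur in polygyne colonies, and SB/SB workers occur in both forms, so P_BB against M_BB compares social forms within a genotype. The antenna is the main chemosensory organ of an ant. It holds olfactory neurons with their odorant receptors, supporting cells that secrete odorant-binding proteins, glia, muscle and epidermis, along with haemolymph cells.

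Members were chosen on the very values described, so the differences between M_BB and the polygyne libraries are a description. Expected counts were divided by an upper-quartile size factor, which gave normalized counts. The mean of a member over the libraries was between 30 and 1500. After 0.5 was added to each value, P_Bb and P_BB were each at least 1.6-fold above M_BB and lay close to each other, with a limit on their ratio that falls between the 1.245-fold of the last gene let in and the 1.252-fold of the first left out. Odorant receptor genes, whose IDs begin with SiOR, and 5 genes excluded by name were left out. In the range of 30 to 1500, 5438 genes were compared. M_BB was at least 1.6-fold lower than both polygyne libraries for 118 of these, or 2.17%, and at least 1.6-fold higher than both for 47, or 0.864%. The closeness of the polygyne libraries took out 18 of the 118, of which 1 was also excluded by name, and left 100 genes, or 1.84%. The split between lower and higher genes depended on the scaling: it was 33 lower and 188 higher when libraries were scaled by total counts, and 59 lower and 99 higher with TPM, a unit that divides counts by transcript length and gives each library the same total. The 91 genes above the range took 29.02% of all counts in M_BB, beside 36.5% in P_BB and 34.1% in P_Bb.

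The libraries held 1310209 (P_Bb), 1800106 (P_BB) and 1453234 (M_BB) expected counts. Odorant receptor genes, which mark antennal olfactory neurons, were detected in each library, with a count for 431 to 439 of the 473 receptor genes and 0.356% to 0.400% of all counts. For tissues other than the sensory epithelium, 5 genes of the study's list were looked at, whose predicted products are typical of fat body (lipid enzymes) or haemocytes (immune proteins). Whether these genes are restricted to such tissues in the antenna was not tested. All 5 were highest in M_BB, the opposite side from the members, and their normalized counts summed to 294 in M_BB, beside 115 in P_BB and 113 in P_Bb. The fatty acid synthase SINVm1_gene_00676, which builds fatty acids, was listed at 0 in both polygyne libraries and at 4.79 normalized counts in M_BB. The acyl-delta desaturase SINVm1_gene_14166 stood at 136 in M_BB, beside 35.9 in P_BB and 46.4 in P_Bb. SINVm1_gene_06423, similar to croquemort, a scavenger receptor of haemocytes in Drosophila, stood at 99.4 against 59.2 and 47.6 in the same order. The list holds 2 further enzymes of sugar and lipid synthesis that were not among the 5. The trehalose-phosphate synthase SINVm1_gene_03610, which makes the blood sugar of insects, stood at 23.4 in M_BB, between 20.6 in P_BB and 24.98 in P_Bb, and the glycerol-3-phosphate acyltransferase SINVm1_gene_01650 stood at 68.4 against 43.0 and 48.8. The study picked all of these genes as higher in monogyne, so they are not independent, and their part in the members' values was not tested.

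The 100 members together took 0.726% of the counts of M_BB (95% Wilson interval 0.712% to 0.740%). Their share was 1.11% (1.10% to 1.13%) of P_BB and 1.16% (1.14% to 1.18%) of P_Bb. Intervals of counts and ratios cover counting error only, since each class has 1 library. The reads carried no molecular identifiers, so copies made by amplification could not be told from separate molecules. The intervals may therefore be too narrow even for counting error. The median member had a normalized count of 48.3 in M_BB, beside 89.7 in P_BB and 89.8 in P_Bb. The median log2 ratio of M_BB to P_Bb was -0.89 over the members and -0.06 over all 5438 genes, and that of M_BB to P_BB was -0.85 over the members and -0.04 over all. The smaller of the 2 polygyne folds ranged from 1.602 to 3.79 with a median of 1.73. It reached 2-fold in 17 members and 3-fold in 1. Most members therefore sat close to the threshold that chose them.

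**Figure D1:**
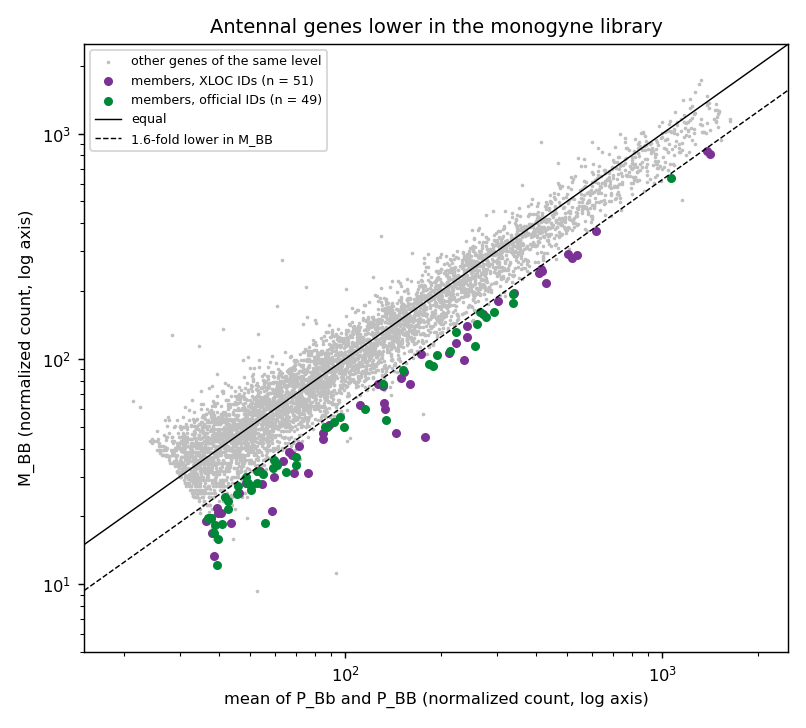
Normalized counts of M_BB (vertical, log axis) against the mean of P_Bb and P_BB (horizontal, log axis) for all 5438 genes of the range, 1 gene of which lies below the plotted axes. The 51 members with XLOC IDs (purple) and the 49 with official gene set IDs (green) follow the dashed line of a 1.6-fold lower value, and few lie far below it.

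XLOC_003265 had the largest difference of all members. It had a normalized count of 45.0 in M_BB, beside 172 in P_BB and 186 in P_Bb. Its log2 ratio of M_BB to P_Bb was -2.03 (exact 95% interval -2.54 to -1.57) and that of M_BB to P_BB was -1.92 (-2.42 to -1.47). XLOC_003605 came next, with 46.9 in M_BB, beside 140 in P_BB and 149 in P_Bb. Both genes encode proteins with no predicted function in the study's list. In both, the 2 polygyne libraries were close together and M_BB was about as far from one as from the other.

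The next members in order of fold were lowly counted and had wide intervals. SINVm1_gene_12944 had normalized counts of 12.1 in M_BB, beside 35.9 in P_BB and 42.8 in P_Bb, from 12.93 expected counts in M_BB. Its log2 ratio of M_BB to P_BB was -1.53, with an interval from -2.58 to -0.62. SINVm1_gene_00355 stood at 18.8 in M_BB against 57.1 and 54.2 in P_BB and P_Bb. XLOC_034772 stood at 13.3 against 37.0 and 39.8 in the same order, and XLOC_043501 at 21.2 against 62.6 and 55.3. In these 4 genes the M_BB value was the lowest by a wide margin, but with few counts behind it. The files pair none of these IDs with a name.

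SINVm1_gene_06014 and SINVm1_gene_08935 combined a large fold with more counts. SINVm1_gene_06014 had 134 normalized counts in both polygyne libraries and 53.5 in M_BB, a log2 ratio of -1.32 to each (-1.82 to -0.86 against P_Bb). SINVm1_gene_08935 had 114 in M_BB, beside 259 in P_BB and 254 in P_Bb, with a log2 ratio of M_BB to P_BB of -1.18 (-1.50 to -0.87). Their intervals lay wholly below the 1.6-fold threshold against both libraries. XLOC_002263, at 31.3 in M_BB against 81.1 and 71.8 in P_BB and P_Bb, and SINVm1_gene_00142, at 15.9 against 41.2 and 38.0, completed the 10 members with the largest folds.

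**Figure D2:**
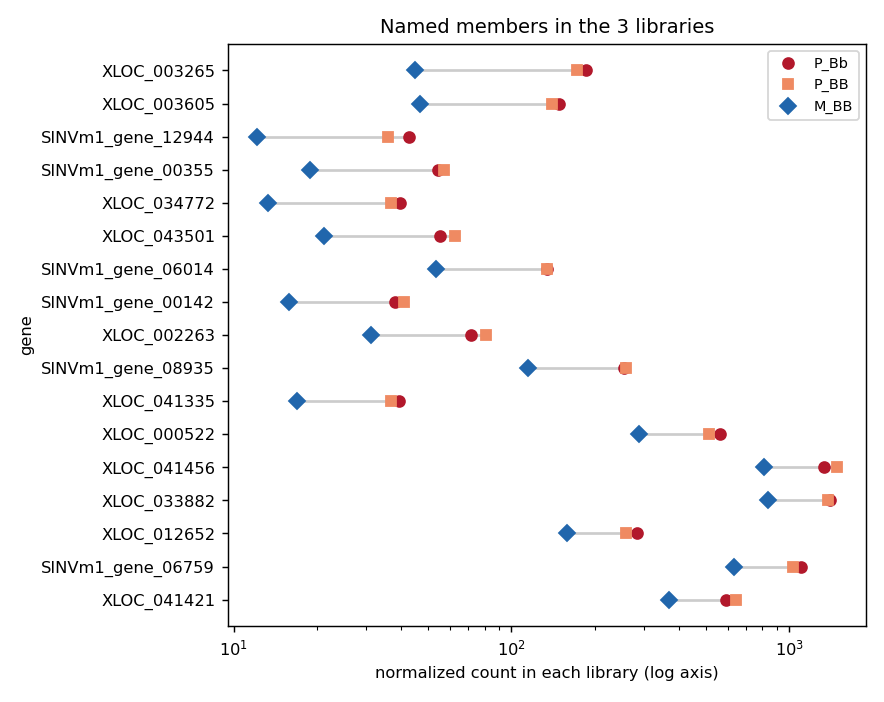
Normalized counts (horizontal, log axis) in P_Bb (circles), P_BB (squares) and M_BB (diamonds) of the 10 members with the largest folds, the 5 with the highest counts and the 4 in the study's list, ordered by fold. The M_BB value is the lowest in every row, down to 12.1 in SINVm1_gene_12944, and the polygyne values lie close together, as the rule required.

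The most highly counted members had small folds and narrow intervals. XLOC_041456 had the highest mean, with normalized counts of 809 in M_BB, beside 1490 in P_BB and 1335 in P_Bb, and a log2 ratio of M_BB to P_BB of -0.88 (-1.002 to -0.76). XLOC_033882 stood at 835 in M_BB against 1373 and 1398 in P_BB and P_Bb, with a log2 ratio of M_BB to P_BB of -0.72 (-0.84 to -0.60). SINVm1_gene_06759 stood at 634 against 1028 and 1104 in the same order, XLOC_041421 at 370 against 641 and 593, and XLOC_000522 at 289 against 513 and 563. None of the 5 reached 2-fold against both polygyne libraries. A mean normalized count of 300 or more was found in 11 members (11.0%, Wilson interval 6.25% to 18.6%). The share of all genes in the range was 14.8%, inside that interval. A mean under 60 was found in 44 members (44.0%, 34.7% to 53.8%), against 32.5% of all genes in the range.

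**Figure D3:**
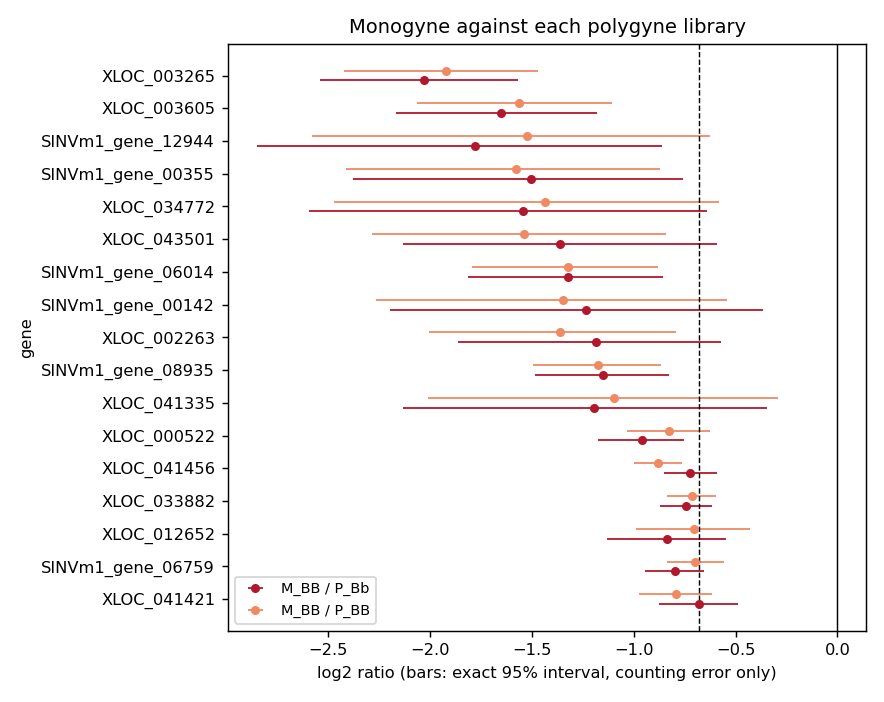
Log2 ratio of M_BB to P_Bb (dark red) and to P_BB (orange) for the same members, with exact 95% intervals that cover counting error only. The dashed line marks a 1.6-fold lower value and the solid line equality. No interval reaches equality, and the intervals of lowly counted genes such as SINVm1_gene_12944 are far wider than those of XLOC_041456 and XLOC_033882.

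Counting error was wide beside the difference in many lowly counted members. Both intervals, of M_BB to P_Bb and of M_BB to P_BB, lay below 0 in 96 of the 100 members and in 11.3% of all genes in the range, a share that the choice of members fixes in part. These intervals say nothing of differences between colonies, pools or library preparations.

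Per unit of transcript length, the order of the members was different. TPM divides counts by effective length, the number of positions at which a fragment can start. SINVm1_gene_00142 had 999 TPM in M_BB against 2185 in P_BB and 2315 in P_Bb, but its length of 213 bases left an effective length of 16.9, so these TPM rest on 16.93, 45.95 and 31.96 expected counts. SINVm1_gene_00767, 411 bases long, had 1166 TPM in M_BB against 2161 in P_BB and 1965 in P_Bb, from 189, 406 and 261 expected counts. In M_BB, P_BB and P_Bb, XLOC_041421 had 429, 635 and 568 TPM, SINVm1_gene_14351 had 284, 454 and 458 TPM, and XLOC_002382 had 289, 410 and 460 TPM. The polygyne libraries were above M_BB in TPM for each of these genes, which their choice on the same counts makes likely. The log2 ratio of M_BB to the mean of the polygyne libraries was nearer equality in TPM than in normalized counts for all of them. It was -0.49 beside -0.74 in XLOC_041421 and -0.59 beside -0.77 in XLOC_002382, each with 3 transcripts. In the genes with 1 transcript it was -1.15 beside -1.29 (SINVm1_gene_00142), -0.82 beside -0.92 (SINVm1_gene_00767) and -0.68 beside -0.80 (SINVm1_gene_14351). The median log2 ratio of M_BB to P_BB over all genes in the range also moved, from -0.04 to 0.12 in TPM.

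The members just inside each threshold show what the rule cut through. SINVm1_gene_14505, with normalized counts of 131 in M_BB, beside 237 in P_BB and 211 in P_Bb, had the smallest fold, at 1.602. XLOC_043586, which was left out, had 458 in M_BB against 733 and 751 and a fold of 1.599. At the limit on the polygyne libraries, SINVm1_gene_13459 (27.2 in M_BB, 44.8 and 55.9 in P_BB and P_Bb) was a member with polygyne values 1.245-fold apart, and SINVm1_gene_09321 (69.4, 155 and 124 in the same order) was not at 1.252-fold. At the lower limit of the mean, XLOC_034772 was a member at 30.04 and SINVm1_gene_15452 (18.8, 35.9 and 34.5) was left out at 29.7. At the upper limit, XLOC_041456 was the highest member, and XLOC_001554 was the nearest gene left out. XLOC_001554 had normalized counts of 912 in M_BB, beside 2078 in P_BB and 1842 in P_Bb. It was therefore more highly counted than any member, though not the highest in TPM, and had a larger fold than most of them.

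Gene IDs are of 2 kinds, which the rule did not use. Official IDs (SINVm1) belong to the fire ant official gene set, whose lengths were multiples of 3 in 99.2% of genes and are therefore coding lengths. XLOC IDs belong to transcripts that the authors assembled from antennal reads of other libraries of the study and added when they encoded a protein similar to a known one. In XLOC genes 27.7% of lengths were multiples of 3. Among the members 51 of 100 had XLOC IDs (51.0%, Wilson interval 41.3% to 60.6%), while 1501 of all 5438 genes in the range did (27.6%). Put the other way, M_BB was at least 1.6-fold lower than both polygyne libraries in 60 of 1501 XLOC genes (3.997%) and in 58 of 3937 official genes (1.47%).

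XLOC genes as a whole stood lower in M_BB than official genes did. Their median log2 ratio over the 1501 genes of the range was -0.21 against P_Bb and -0.21 against P_BB, and the medians of official genes were -0.01 and 0.02. With total counts the XLOC medians were -0.01 and 0.04 and the official medians 0.19 and 0.26, so the side of 0 depended on the scaling. With upper-quartile scaling M_BB was below both polygyne libraries in 61.8% of XLOC genes and above both in 16.9%, and in official genes these shares were 37.0% and 39.0%. Between the polygyne libraries no such gap was seen, with a median log2 ratio of P_Bb to P_BB of 0.00 in XLOC genes and 0.02 in official genes. XLOC genes of every level took 38.9% of the counts of M_BB, 46.7% of P_BB and 44.1% of P_Bb. Of the counts of genes in the range, XLOC genes took 30.2%, 33.6% and 32.8% in the same order. The gap between the ID kinds in the M_BB to P_BB ratio was -0.23. Size factors cancel in this gap. With the deposited TPM it was -0.22.

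**Figure D4:**
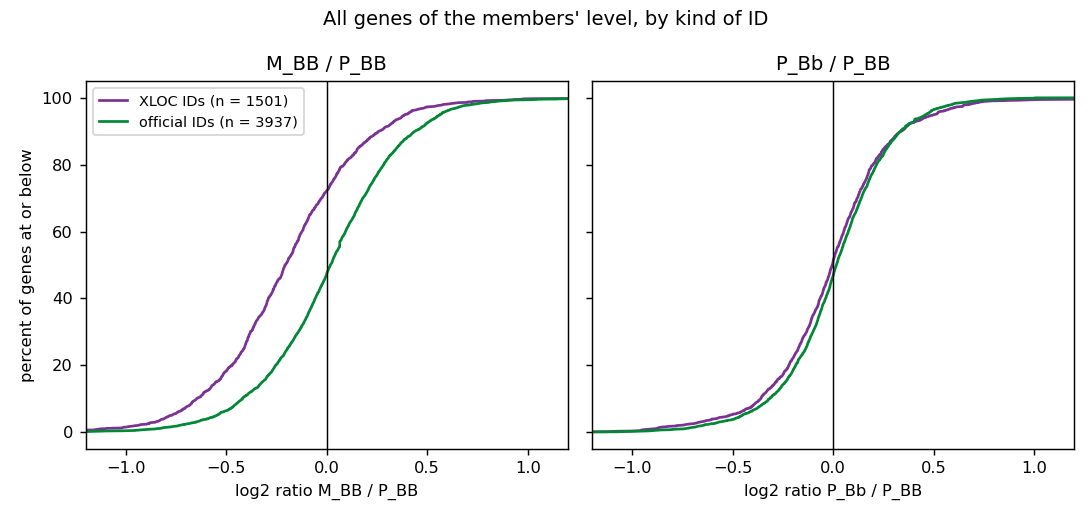
Percent of genes (vertical) at or below a log2 ratio (horizontal) among the 1501 XLOC genes (purple) and 3937 official genes (green) of the members' range, for M_BB to P_BB (left) and P_Bb to P_BB (right). The horizontal axes stop short of the most extreme genes. The XLOC curve lies to the left of the official curve for M_BB to P_BB, with medians of -0.21 and 0.02, and the curves nearly meet for P_Bb to P_BB.

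The gap was present at every length and level. In XLOC genes the median log2 ratio of M_BB to P_BB was -0.25 for lengths under 1000 bases, -0.18 from 1000 to 2000, -0.17 from 2000 to 4000 and -0.22 above. By mean normalized count it was -0.14 from 30 to 60, -0.16 from 60 to 120, -0.23 from 120 to 300 and -0.30 above. In official genes the medians lay between 0.00 and 0.05 in the bands of length and between -0.06 and 0.06 in the bands of level. The M_BB ratios were also set against the median of each gene's own ID kind, an alternative chosen after seeing the data. Then 66 of the 100 members still passed the rule, and no other gene did. Of the 66, 17 (25.8%) had XLOC IDs, beside 27.6% of all genes in the range. Such centring asks a larger fold of XLOC genes, so a fall of their share follows from its construction. The cause of the gap was not tested.

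Within the members the ID kinds differed little in fold, which their choice at the same 1.6-fold threshold makes likely. The median log2 ratio of M_BB to P_BB was -0.87 in the 51 XLOC members and -0.85 in the 49 official members. Their levels were further apart, with a median mean normalized count of 111 in XLOC members and 53.9 in official members. The medians of all genes in the range were 101 (XLOC) and 86.6 (official), so only the official members were low for their kind. From a mean of 30 to 60, 3.75% of XLOC and 2.05% of official genes were members. From 300 up these shares were 3.69% and 0.187%. Of the 5 most highly counted members 4 had XLOC IDs, and of the 10 with the largest folds 5 did, beside 51 of all 100 members.

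Members were shorter than the genes of the range of their own ID kind at the median. Over both kinds their median effective length was 1695 bases (95% interval from order statistics 1319 to 2054), and that of all genes in the range was 1953. XLOC members had a median full length of 2309 bases (1707 to 2673) against 3230 (3087 to 3422) for XLOC genes of the range. Official members had a median coding length of 1605 (1239 to 1992) against 1965 for official genes, which lies inside the interval of the members. The share of genes that were members was 5.88% of XLOC genes under 1000 bases and 2.02% of those of 4000 bases or more, and 2.11% and 0.787% in official genes. The number of genes behind the first of these shares was small, 3 members of 51 genes.

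Few members shared many reads with other transcripts. RSEM gives a posterior SD for each count, which grows where reads could belong to several transcripts. It exceeded 10% of the posterior mean in at least 1 library for 1 member, XLOC_040565, and in 0.791% of all genes in the range. XLOC_040565 had 5 transcripts and normalized counts of 197 in M_BB, beside 356 in P_BB and 327 in P_Bb, and its expected and posterior mean counts in P_Bb were 275 and 264. XLOC_002382 and XLOC_041456, whose expected and posterior mean counts also differed among the most, had a posterior SD of at most 7.92% and 6.87% of the mean. A single transcript was counted in 90 members (90%) and in 92.8% of all genes in the range. Reads of both strands were counted together, so members that overlap another gene on the opposite strand cannot be told from it.

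In 3 pairs of members, all with XLOC IDs, no measured ID lay between the IDs of the pair. Of the 102 measured XLOC IDs next to a member 6 were members, and of the 98 official ones 0 were. These neighbours include genes outside the range, which could not be members. Among genes in the range alone, which is another base, 3.40% of XLOC and 1.24% of official genes were members. XLOC_041421 and XLOC_041423 stood at 370 and 107 normalized counts in M_BB, 641 and 204 in P_BB, and 593 and 220 in P_Bb. XLOC_034770 and XLOC_034772 stood at 51.0 and 13.3 in M_BB, 83.3 and 37.0 in P_BB, and 94.0 and 39.8 in P_Bb. XLOC_039277 and XLOC_039286 stood at 105 and 181 in M_BB, 172 and 302 in P_BB, and 174 and 303 in P_Bb. The smaller folds were 1.604 and 1.91 in the first pair, 1.63 and 2.71 in the second and 1.64 and 1.67 in the third. Of the genes in the range with the ID next to a member and not members themselves, 49 were XLOC and 34 official. Their median log2 ratios of M_BB to P_BB were -0.27 and 0.04, beside -0.21 and 0.02 in all genes of the same ID kind. Members are left out of the former medians and kept in the latter. Genome positions were not used here.

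The study's list of genes by social form holds 4 of the members, all as uncharacterized proteins. The list was made on other libraries of the same study, whose RNA came partly from the workers sampled here. It is not independent evidence of direction. It holds 22 genes listed as higher in polygyne workers, of which 16 were in the range of 30 to 1500, 5 were below it and 1 above it. In 15 of the 16 M_BB was below both polygyne libraries, as it was in 43.9% of all genes in the range, and 4 were members. The median log2 ratio over the 16 was -0.59 to P_Bb and -0.41 to P_BB. In all genes of the range 2.17% had M_BB at least 1.6-fold lower than both, which in the 16 were the 4 members.

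All 4 members of the list are uncharacterized proteins with XLOC IDs. XLOC_003265 and XLOC_003605 head the order of folds. XLOC_041335 had normalized counts of 16.9 in M_BB, beside 36.8 in P_BB and 39.3 in P_Bb, with a log2 ratio of M_BB to P_BB of -1.10 (-2.01 to -0.29). XLOC_012652 had 158 in M_BB against 259 and 283 in P_BB and P_Bb, with a log2 ratio of M_BB to P_BB of -0.71 (-0.99 to -0.43). The interval of XLOC_041335 was wide, from 18 counts in M_BB, and XLOC_012652 was close to the threshold.

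The listed genes that were not members had smaller differences or were outside the range. XLOC_030870, an AAA ATPase, one of a large family of enzymes that remodel other proteins with the energy of ATP, had normalized counts of 12.2 in M_BB, beside 28.7 in P_BB and 24.98 in P_Bb, below the minimum mean. XLOC_020263, similar to CELF2, an RNA-binding protein that regulates splicing in vertebrates, had 1231 in M_BB against 1850 and 1869 in P_BB and P_Bb, above the range. SINVm1_gene_10721, similar to the deoxyribonuclease TATDN1, had at most 1 count in each library, too few for a comparison. At the other end, SINVm1_gene_10049, predicted to be an iduronate 2-sulfatase, a lysosomal enzyme that breaks down glycosaminoglycans, had 15.9 in M_BB against 18.8 and 16.7 in P_BB and P_Bb. XLOC_006396, an uncharacterized protein, had 61.0 against 80.9 and 58.4 in the same order. SINVm1_gene_09125, similar to the nuclease HARBI1, which in vertebrates derives from a transposon, had 4.69 against 1.79 and 5.95. M_BB lay between the polygyne libraries in these last genes, XLOC_006396 and SINVm1_gene_09125. Of the 21 genes listed as higher in monogyne workers none was a member, and M_BB was above both polygyne libraries in 12 of the 14 in the range, as it was in 32.9% of all genes there.

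**Figure D5:**
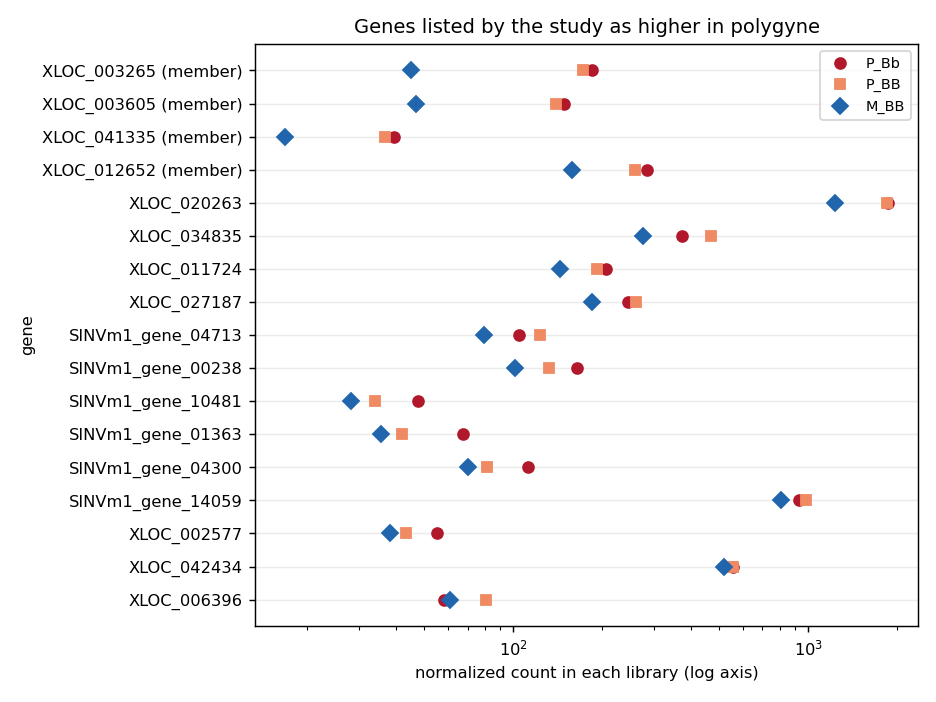
Normalized counts (horizontal, log axis) in P_Bb (circles), P_BB (squares) and M_BB (diamonds) for genes that the study listed as higher in polygyne workers and whose mean was at least 30, ordered by the smaller fold. The 4 members are at the top, with M_BB at 16.9 to 158, and M_BB is the lowest value in each row except that of XLOC_006396.

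The polygyne libraries differed little from each other over the members, as the rule required. P_Bb was above P_BB in 56 of the 100 members and in 51.9% of all genes in the range. The log2 ratio of P_Bb to P_BB ranged from -0.30 to 0.32 over the members with a median of 0.02. Because M_BB was compared with both polygyne libraries, the M_BB to P_Bb and M_BB to P_BB ratios share the M_BB value and are not separate evidence of a low value in it.

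The size of the difference depended on how libraries were scaled. With total counts the median log2 ratio of M_BB to P_BB over the members was -0.61, and the median of all genes in the range moved to 0.21. A size factor moves every gene of a library alike, so the distance of the members from the other genes does not depend on it.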

How the data were processed

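RNA from worker antennae was sequenced in 3 libraries, 1 per class (polyA selection, SMARTer stranded kit, paired reads of 150 bases). Per the labels and the study's methods, the authors mapped reads with Bowtie2 to official gene set, XLOC and SiOR transcripts and deposited RSEM expected counts, posterior mean counts, lengths and TPM (which share 1 total per library). The methods give tool versions for the study's replicate libraries, and none is stated for these files. Forward and reverse reads were given equal probability (0.5), so antisense reads were counted with sense reads. The authors' deposited EBSeq table (posterior probabilities of expression patterns) and the transcript models were not used: 1 of 4351 XLOC transcripts carried the same ID pair in the models. Of the members, 0 of 100 IDs occurred in the RefSeq gene table of assembly UNIL_Sinv_3.0.

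Size factors were the 75th percentile over genes with a count in any library, scaled to a geometric mean of 1 (P_Bb 0.841, P_BB 1.12, M_BB 1.07). Log2 ratios used normalized count plus 0.5, which understates changes of low genes. Ratio intervals are exact conditional (Clopper-Pearson) 95% intervals on rounded counts. Scripts were tested on simulated data. Members and lists were chosen with earlier results of these data known. Named were members in the study's list, the 10 with the largest smaller fold, the 5 highest in count and in TPM, those beside each threshold, the 3 whose posterior mean differed most, up to 6 other listed genes, and the marker genes. Genes named for their ID neighbours, and in the closing section, were chosen after their values were seen. Alternatives were other size factors (edgeR 4.0.16 TMM on rounded counts, median of ratios, total counts), TPM, posterior mean counts, and other pseudocounts, minimum means, folds and closeness. Python 3.11.15, scipy 1.17.1 and R 4.3.3 were used.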

Additional observations from a re-analysis of the deposited data

How the results depend on the processing

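The number of members was 100 as reported. It was 27 with total counts and 45 with deposited TPM, 197 with a minimum mean of 10 and 44 with a minimum of 100, 17 at 2-fold, and 66 with ratios centred on each ID kind, chosen after seeing the data. It stayed between 74 and 109 under the other 9 alternatives. Of these, genes with few shared reads (99) and genes with both intervals below 0 (96) were subsets of the 100 by construction. Also chosen after seeing the data were 2 of the 9. In 1, ratios were centred on the median of the range (74). In the other, total counts were moved back to the range median of the upper-quartile scaling (90), which undid most of the change of scaling. With total counts all 27 were among the 100 members. The median log2 ratio of M_BB to P_BB over the members was -0.61 with total counts, -0.72 with TPM and -0.81 with a pseudocount of 5. That of M_BB to P_Bb was -0.70, -0.81 and -0.82. Total counts and TPM move the median of all genes in the same direction, and a larger pseudocount shrinks ratios by construction. A posterior SD above 0, in place of above 10% of the mean, was found in 77.0% of members and 71.3% of all genes in the range. Over 6 alternatives, none of the 23 named members changed direction, which their choice at 1.6-fold makes unlikely, and 127 of 138 values stayed within the counting interval. No paired analysis was possible because each class has 1 library, and no library could be left out. In lowly counted members depth limits the value: 4 of the 100 had an interval that reached equality.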

Other observations

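M_BB was at least 1.6-fold lower than both polygyne libraries in 18 further genes whose polygyne values were too far apart for the rule, from 1.252-fold to 5.72-fold. P_Bb was the higher of the polygyne libraries in 13 of them and P_BB in 5. XLOC_036824 had the highest level, with normalized counts of 507 in M_BB, beside 1416 in P_BB and 897 in P_Bb. XLOC_044145, which the study lists as higher in SB/Sb workers, had 11.3 in M_BB against 27.4 and 159 in P_BB and P_Bb. In the latter the P_Bb value stood far above both SB/SB libraries, and M_BB was also below P_BB.

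SINVm1_gene_10898 and SINVm1_gene_10899 have consecutive IDs and were both among these 18. SINVm1_gene_10898 had 0 expected counts in M_BB against 41.77 and 93.04 in P_BB and P_Bb. Its posterior mean counts were 36.63, 55.74 and 78.67 in the same order, with a posterior SD of up to 84.0% of the mean, so its reads could not be assigned with confidence and the 0 is an estimate. SINVm1_gene_10899, listed by the study as a Mariner element higher in monogyne workers, had normalized counts of 43.4, 72.8 and 130 in that order and a posterior SD of up to 47.5% of its mean.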
